A study of Homo sapiens with 6 samples.

Results

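Expression of collagen chains and large matrix glycoproteins was compared between MDA-MB231 cells with a stable knockdown of G9a and their parental control cells. The set named 42 genes: 34 collagen chains, the glycoprotein genes FN1, TNC, FBN1, FBN2, THBS1, THBS2 and POSTN, and VIM, an intermediate filament gene. A gene was included when a probe set of the array's annotation named it and no other gene, and 41 of the 42 were found this way among 18417 genes tested. COL17A1 was not analysed here, and each of the 41 had a single such probe set. MDA-MB231 is an established human line from a metastatic breast cancer. The knockdown group held 3 arrays of 1 clone, described by the labels as less metastatic, and the control group held 3 arrays of parental cells without treatment. All were grown in the same serum-containing medium and harvested in logarithmic growth. The labels do not say whether the replicates were separate cultures. The p-values therefore reflect the spread among these arrays alone, possibly a technical one, and features of the 1 clone cannot be told apart from the effect of the knockdown.

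Collagens are built from chains wound into a triple helix with glycine at regular intervals. Fibrillar collagens form the tensile fibres of stroma, collagen IV forms the sheet of basement membranes, collagen VI forms beaded filaments around cells, and the FACIT collagens decorate fibrils. Fibronectin, tenascin, fibrillins, thrombospondins and periostin are secreted glycoproteins that link these networks to cell surface receptors and growth factors. In carcinomas most fibrillar collagen is made by stromal fibroblasts.

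The RefSeq table held start-site windows for 32 of the 41 genes, each running from 250 bases before to 50 bases after an annotated start (GRCh38.p14). They are shown for 5 genes that had exactly 1 window. These are COL15A1, which rose, the collagen VI chains COL6A2 and COL6A3, the FACIT chain COL12A1, and COL4A2, whose window also holds the start of its neighbour COL4A1. COL6A1, the other member that rose, did not have exactly 1 window and is not shown. Capitals mark GGGCGG (the GC box), CCAAT and TATAAA, each searched on both strands. The windows are COL15A1 at chr9:98943657-98943956 (plus strand), COL6A2 at chr21:46097862-46098161 (plus), COL6A3 at chr2:237414115-237414414 (minus), COL12A1 at chr6:75206004-75206303 (minus) and COL4A2 at chr13:110307034-110307333 (plus).
COL15A1: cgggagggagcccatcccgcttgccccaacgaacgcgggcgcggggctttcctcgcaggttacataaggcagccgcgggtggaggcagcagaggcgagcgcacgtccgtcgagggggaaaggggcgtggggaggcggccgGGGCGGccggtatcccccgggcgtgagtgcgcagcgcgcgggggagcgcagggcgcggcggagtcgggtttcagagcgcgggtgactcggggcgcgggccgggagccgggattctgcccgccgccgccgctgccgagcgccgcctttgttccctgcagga
COL6A2: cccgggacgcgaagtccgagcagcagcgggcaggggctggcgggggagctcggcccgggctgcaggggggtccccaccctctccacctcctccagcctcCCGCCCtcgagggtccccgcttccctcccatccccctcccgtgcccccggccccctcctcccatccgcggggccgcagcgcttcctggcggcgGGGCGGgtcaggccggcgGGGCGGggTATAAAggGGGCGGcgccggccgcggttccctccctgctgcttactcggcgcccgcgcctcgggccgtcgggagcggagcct
COL6A3: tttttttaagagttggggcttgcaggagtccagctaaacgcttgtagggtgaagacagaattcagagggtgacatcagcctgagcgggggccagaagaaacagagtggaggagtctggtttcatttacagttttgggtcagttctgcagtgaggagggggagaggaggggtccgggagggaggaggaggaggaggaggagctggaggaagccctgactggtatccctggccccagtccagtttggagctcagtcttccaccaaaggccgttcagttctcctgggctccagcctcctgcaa
COL12A1: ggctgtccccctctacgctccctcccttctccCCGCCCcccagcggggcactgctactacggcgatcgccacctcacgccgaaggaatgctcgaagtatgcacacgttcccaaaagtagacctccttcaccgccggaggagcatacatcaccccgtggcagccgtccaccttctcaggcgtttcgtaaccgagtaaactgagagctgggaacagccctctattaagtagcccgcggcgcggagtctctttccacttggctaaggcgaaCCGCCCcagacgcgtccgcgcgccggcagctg
COL4A2: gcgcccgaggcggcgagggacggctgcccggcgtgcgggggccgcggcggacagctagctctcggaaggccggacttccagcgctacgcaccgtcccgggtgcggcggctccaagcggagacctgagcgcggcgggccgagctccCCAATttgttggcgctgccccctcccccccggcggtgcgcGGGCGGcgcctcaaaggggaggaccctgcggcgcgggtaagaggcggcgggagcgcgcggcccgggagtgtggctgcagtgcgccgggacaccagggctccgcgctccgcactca
Among all 35116 windows of this length, 45% held a GC box, 34.6% held CCAAT and 11.5% held TATAAA. The COL6A2 window held 4 GC boxes and 1 TATAAA, the COL12A1 window 2 GC boxes, the COL15A1 window 1 GC box, the COL4A2 window 1 GC box and 1 CCAAT, and the COL6A3 window none of these motifs. CG dinucleotides numbered 45 in COL15A1, 36 in COL6A2, 29 in COL12A1, 45 in COL4A2 and 4 in COL6A3, against a median of 14 over all windows. COL4A1 and COL4A2 are read in opposite directions from starts 127 bases apart, and their windows share 226 bases. Of the 26 measured members with exactly 1 window, the 19 whose mean log2 intensity over the 6 arrays exceeded 7.53, the upper edge of the dimmest of 3 equal classes of genes, had a median of 26 CG dinucleotides (4 to 45), and the 7 below that edge had a median of 12 (3 to 30), which is given as a description.

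The targeted gene was read first. EHMT2, which encodes G9a, a histone H3 methyltransferase, had log2 intensities of 9.66, 9.59 and 9.51 on the knockdown arrays, against 10.21, 10.27 and 9.93 on the control arrays. The groups did not overlap, and the difference, knockdown minus control, was -0.55 ± 0.10 (SE; limma, adjusted p = 0.0259). The call was lost without any 1 array other than control replicate 3 (limma, adjusted p from 0.0716 to 0.122). Genes were ranked by their mean over the 6 arrays and divided into 3 equal classes, called dim (mean log2 of at most 7.53), middle and bright. All 8 marker genes of this line (VIM, CD44, KRT8, KRT18, EGFR, AXL, ANXA1 and CAV1) were bright, while ESR1, PGR and CDH1 were dim. ERBB2 and EPCAM, which the marker list had as low, were bright and middle genes. CDH1, the epithelial cadherin, rose (0.45 ± 0.07 SE; limma, adjusted p = 0.0177), a call that likewise held without control replicate 3 alone (limma, adjusted p from 0.0525 to 0.0983 without any other array). Of 10 fibroblast markers 7 were dim, PDGFRA, DCN, LUM and FAP among them, while PDGFRB and ACTA2 were middle genes and PDPN was bright. The mean log2 level of the 10 ran from 6.93 to 6.98 on the knockdown arrays and from 6.98 to 7.14 on the control arrays. LUM fell (-1.31 ± 0.14 SE; limma, adjusted p = 0.00732) and the other 9 did not pass. The mean of LUM was 7.63 in control, above the dim edge, and 6.32 in the knockdown. The median difference of the 10 was 0.033, with 6 above 0. An intensity scale has no true zero, and the part of such cells in the results was not tested.

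Across all 18417 genes, 235 were higher (1.28%) and 327 lower (1.78%) in the knockdown, 562 in all (3.05%), at an adjusted p of 0.05 (limma, Benjamini-Hochberg over all genes). When each array was centred on its dim genes, that split was 138 higher and 524 lower. Of the 41 members, 2 rose, 0 fell and 39 did not pass. The 2 that rose were COL6A1, a chain of the beaded filaments around cells, and COL15A1, a chain of the outer basement membrane zone. At an unadjusted p of 0.05, 8 members were higher (a background of 10.1% of all genes) and 1, POSTN, was lower (a background of 9.23%). In cultured cells assayed in bulk, fewer cells expressing a gene and less RNA per cell cannot be told apart.

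Most members leaned upward by less than the test could call. The difference was above 0 for 35 of 41, with a median of 0.12 on the log2 scale, against 59.6% of all genes and a median of 0.031. Among collagen chains alone it was above 0 for 32 of 33, with a median of 0.13, and COL8A1 was the chain with a negative value. Centring each array on its dim genes shifts the differences of all genes by the same amount. It took the median of the 41 members to 0.061, with 31 of 41 above 0, and that of all genes to -0.028. COL4A1, COL8A2, COL9A2 and COL14A1 then lay below 0 as well, the last pair also after quantile normalization. Dim genes as a whole also leaned upward, with 68.6% above 0 and a median of 0.055, as did middle genes (61.7%, median 0.039), but not bright genes (48.5%, median -0.0046). Groups did not overlap for 13 members with the knockdown higher (31.7%), against a background of 14.3%, and for 4 members with the knockdown lower (9.76%), against a background of 12.7%.

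**Figure D1:**
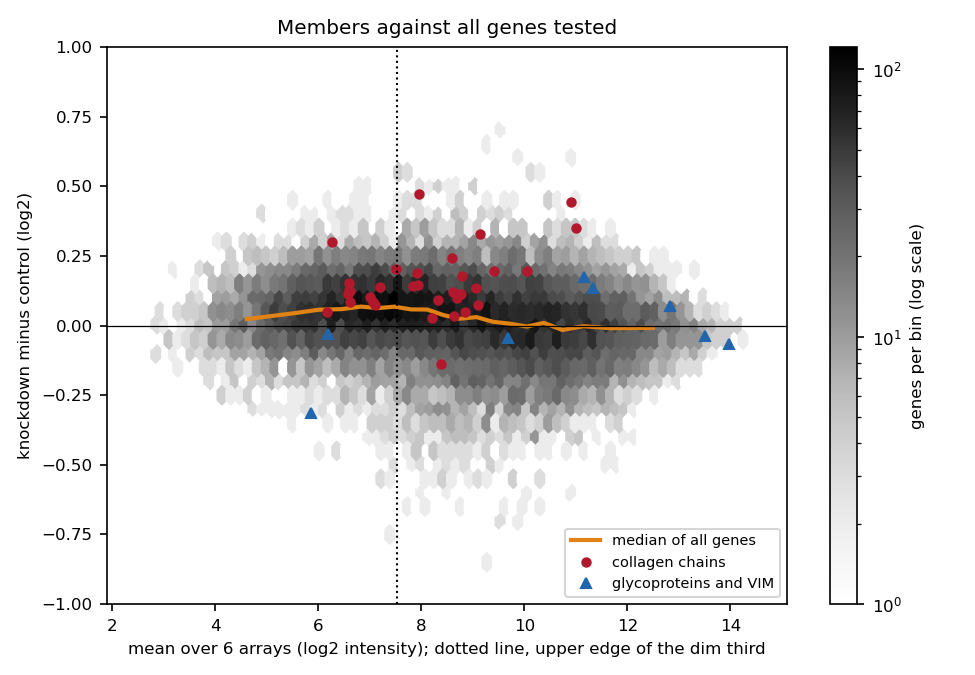
Difference between knockdown and control (log2, vertical axis) against the mean log2 intensity over the 6 arrays (horizontal axis) for all genes tested (grey, by density), the collagen chains (red circles) and the glycoproteins with VIM (blue triangles). The orange line is the median of all genes in 20 bins of equal size, the dotted line is the upper edge of the dim genes, and 27 genes that differed by more than 1 lie outside the plot; 32 of 33 chains sit above 0, with COL4A1, COL8A2, COL9A2 and COL14A1 below it once arrays are centred on dim genes, whereas the 3 glycoprotein and VIM points at the right end lie close to it.

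The upward lean of the members was uneven across the arrays. Knockdown replicate 1 gave the highest of the 6 values for 26 members (63.4%), against 31.9% of all genes, and control replicate 1 gave the lowest for 22 members (53.7%), against 19.9% of all genes. The median deviation of the 41 members from their 6-array means was 0.16, -0.013 and 0.047 on knockdown replicates 1, 2 and 3, and -0.12, -0.064 and 0.015 on control replicates 1, 2 and 3. By this measure control replicate 3 lay above knockdown replicate 2, so the groups overlapped. The dim genes of the whole array had the same highest and lowest arrays on a smaller scale, with knockdown replicate 1 at 0.094 and control replicate 1 at -0.059. So did the middle genes, at 0.044 and -0.017, but not the bright genes, at -0.015 and 0.025. Without knockdown replicate 1 the median difference of the members was 0.072, beside 0.014 for all genes. Without control replicate 1 it was 0.085 for the members, beside 0.025 for all genes. With both left out, a setting added after seeing the data, the members' median was 0.034 with 27 of 41 above 0, beside 0.0085 for all genes. These 2 arrays were the extremes for the members, so a smaller median was built into that choice. COL6A1 then stood at 0.41 and COL15A1 at 0.44 without passing (limma, adjusted p = 0.124 and 0.161). Leaving out knockdown replicate 1 and control replicate 3, also added after seeing the data, gave the members a median of 0.11, with 35 of 41 above 0 and 3 higher at the threshold. The median of all genes was then 0.016.

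**Figure D2:**
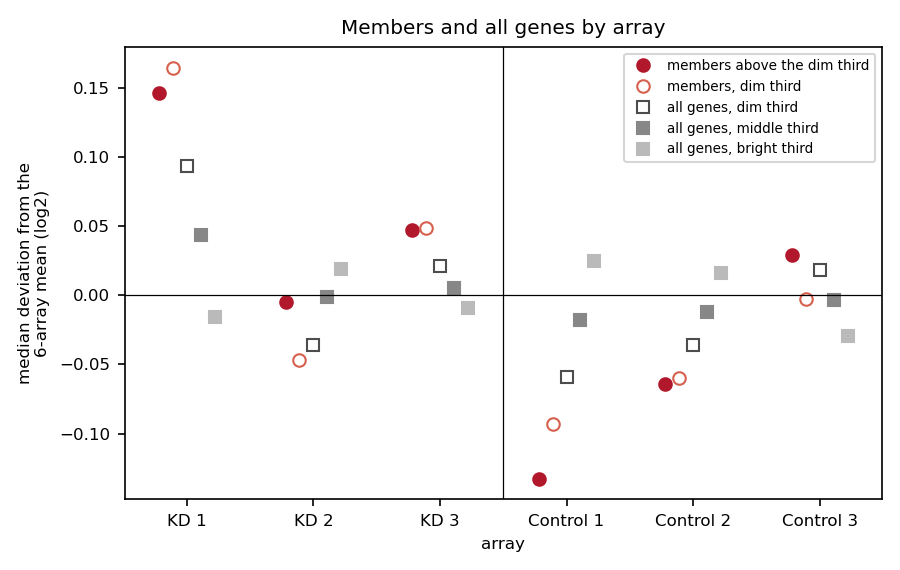
Median deviation from each gene's 6-array mean (log2, vertical axis) on the 3 knockdown arrays (left) and the 3 control arrays (right), for members above the dim genes, dim members, and all genes of the dim, middle and bright ranges. Members are highest on knockdown replicate 1 and lowest on control replicate 1. Dim and middle genes of the whole array have the same highest and lowest arrays over a narrower range, and bright genes do not.

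**Figure D3:**
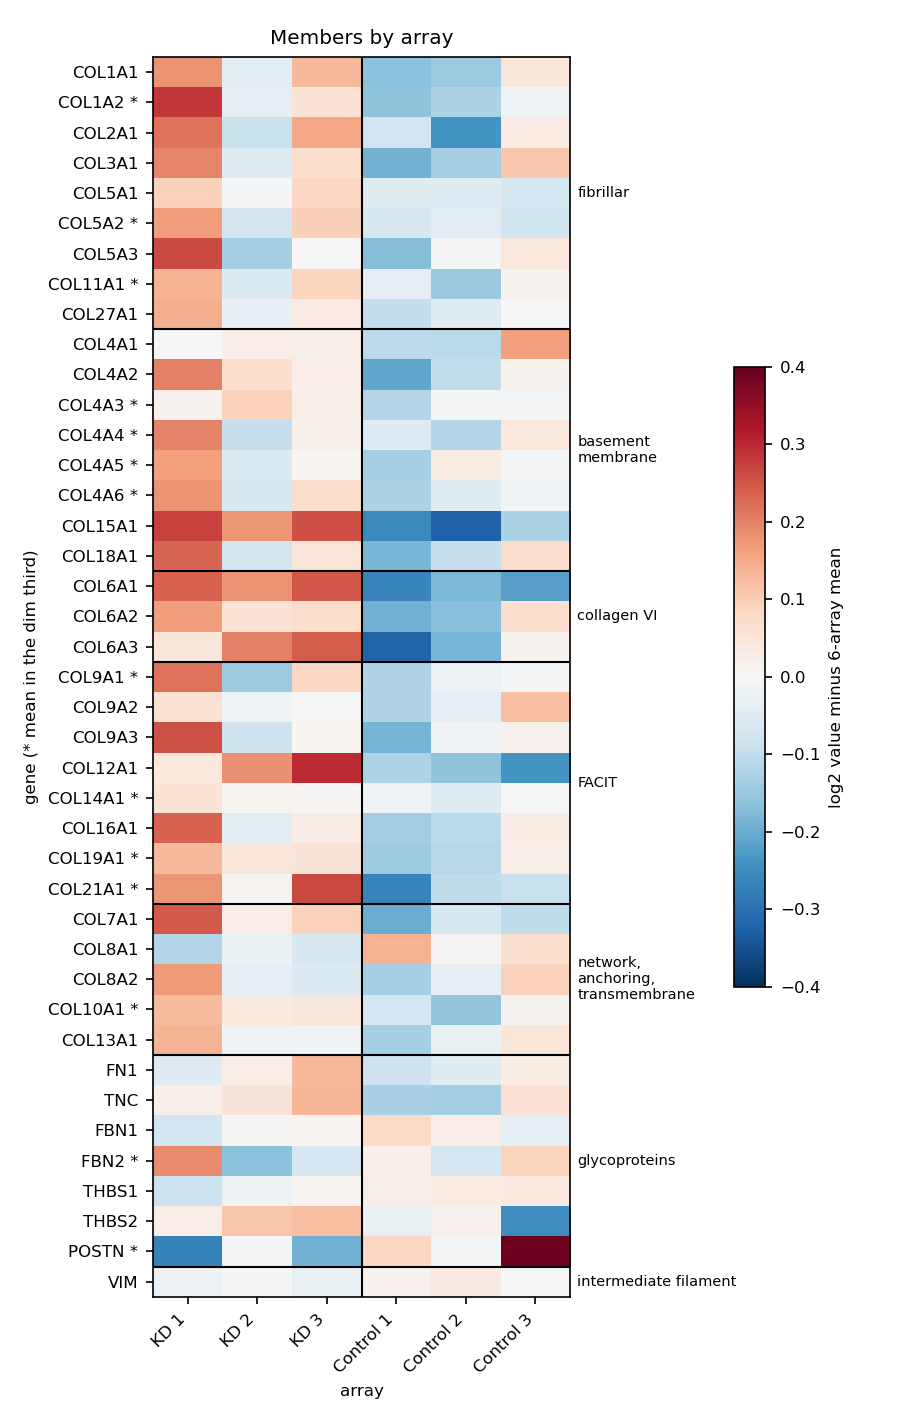
Log2 value of each member minus its 6-array mean (colour), with members in rows by role and the knockdown arrays (KD) left of the control arrays. Asterisks mark dim members; COL6A1, COL15A1 and COL12A1 are red on all 3 knockdown arrays and blue on all 3 control arrays, while many other chains are red mainly on knockdown replicate 1.

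Of the 33 chains measured, 21 lay above the dim genes and 12 did not. Those above in the fibrillar group were COL1A1, COL2A1, COL3A1, COL5A1, COL5A3 and COL27A1, and in the basement membrane group COL4A1, COL4A2, COL15A1 and COL18A1. The others above were the collagen VI chains of the set (COL6A1, COL6A2 and COL6A3), COL9A2, COL9A3, COL12A1 and COL16A1 of the FACIT group, and COL7A1, COL8A1, COL8A2 and COL13A1. COL6A1, COL6A2 and COL12A1 were the bright chains. COL1A2 (7.50) lay just inside the dim range, and COL3A1 (7.85) was the next member above it. No detection call was used and probe sets differ in their own background, so a place above the dim genes does not show that a chain was expressed, and levels of different genes were not compared further. Of the 7 glycoprotein genes, FBN2 and POSTN were dim.

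Of the 3 collagen VI chains in the set, 1 rose, and all 3 had differences above 0 (median 0.33). COL6A5 and COL6A6, named here for their family, are collagen VI chains outside the set. Both were dim, and their differences of 0.052 and -0.019 did not pass. COL6A1 read 11.14, 11.08 and 11.15 on the knockdown arrays and 10.64, 10.72 and 10.69 on the control arrays. Every knockdown array was above every control array, and the means of 11.12 ± 0.04 in the knockdown and 10.68 ± 0.04 in control (SD, n = 3 each) lay far apart relative to their spread. The difference was 0.44 ± 0.06 (SE), or 1.36-fold (limma, adjusted p = 0.0112). Leaving out knockdown replicate 1 or knockdown replicate 3 ended the call (limma, adjusted p = 0.0528 and 0.0737), with the difference at 0.44 and 0.43. COL6A3, which carries the long globular arms of the filament, read 9.19, 9.35 and 9.39 in the knockdown and 8.83, 8.96 and 9.16 in control. Its groups did not overlap, but the difference of 0.33 ± 0.10 (SE) did not pass (limma, adjusted p = 0.113). COL6A2 read 10.22, 10.11 and 10.13 in the knockdown and 9.87, 9.89 and 10.13 in control, so that control replicate 3 reached the knockdown range, and its difference of 0.19 had a 95% interval of 0.0042 to 0.38 (adjusted p = 0.249, limma). COL6A1 and COL6A2 are next to each other on chromosome 21. The 10 tested genes around COL6A1 had a median difference of 0.012, and 0 of them passed.

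Among basement membrane chains, COL15A1 was the member that rose. It read 8.23, 8.13 and 8.21 in the knockdown, against 7.70, 7.63 and 7.83 in control, with no overlap. The difference was 0.47 ± 0.07 (SE), or 1.39-fold (limma, adjusted p = 0.0159). The call ended without control replicate 1 (limma, adjusted p = 0.0538), control replicate 2 (0.0649), knockdown replicate 1 (0.0675) or knockdown replicate 3 (0.0936), with differences of 0.43 to 0.46. The 10 tested genes around COL15A1 on chromosome 9 had a median difference of 0.11, with 9 above 0 and 0 passing.

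The collagen IV chains did not pass. COL4A2 read 9.61, 9.48 and 9.44 in the knockdown and 9.21, 9.31 and 9.43 in control, which just did not overlap (0.20 ± 0.08 SE; limma, adjusted p = 0.225). COL4A1, transcribed from the shared start region, read 8.63, 8.66 and 8.66 in the knockdown and 8.53, 8.52 and 8.80 in control. The groups overlapped because control replicate 3 was the highest of the 6, and the difference of 0.033 had a 95% interval of -0.16 to 0.22. Whether the difference of COL4A2 exceeded that of COL4A1 was not tested. The minor chains COL4A3, COL4A4, COL4A5 and COL4A6 were dim, with differences of 0.074 to 0.12. COL18A1, whose fragment endostatin restrains vessel growth, read 9.30, 8.99 and 9.11 in the knockdown and 8.88, 8.98 and 9.14 in control, with overlap (0.14; 95% interval -0.088 to 0.36), and stood at 0.054 without knockdown replicate 1.

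**Figure D4:**
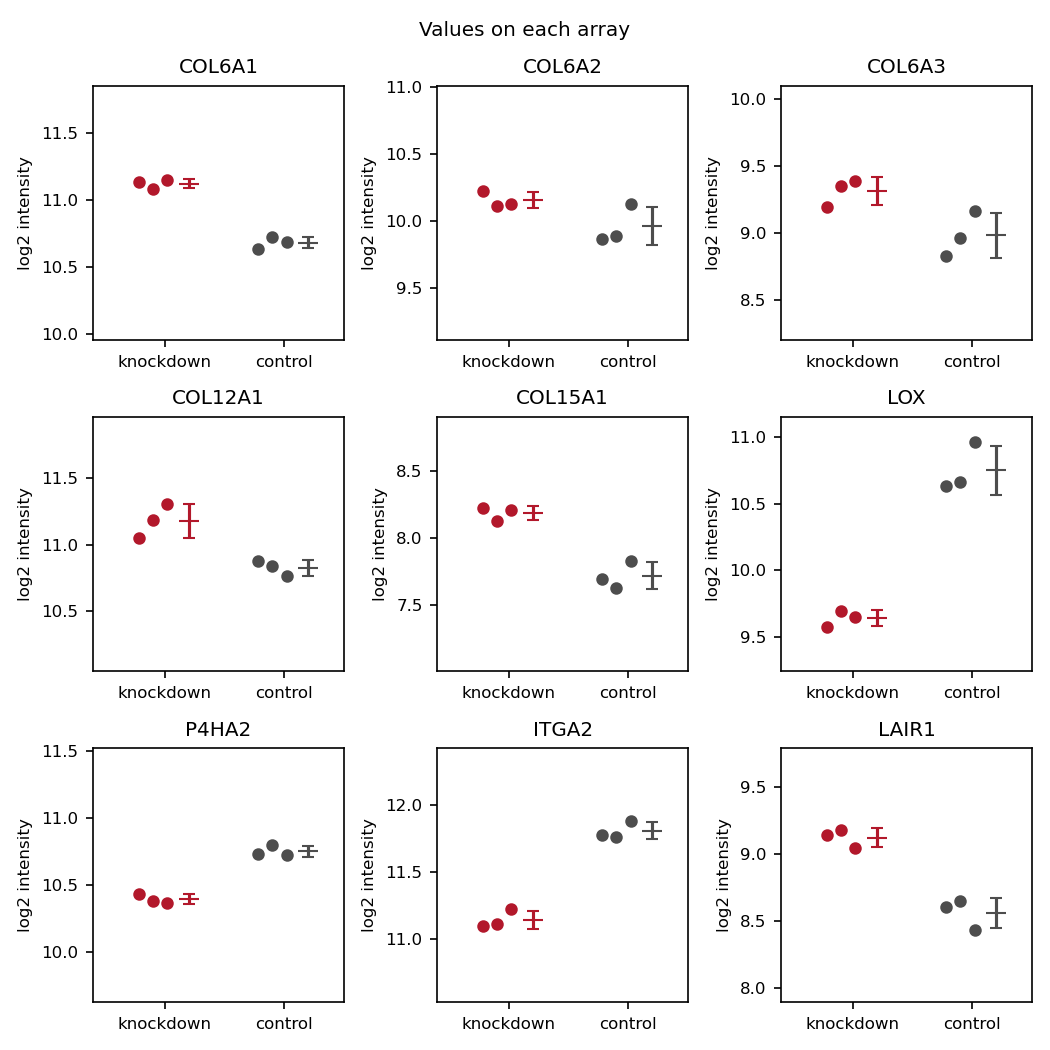
Log2 intensity on each array (points) with the group mean and SD (bars, n = 3) for COL6A1, COL6A2, COL6A3, COL12A1, COL15A1 and the processing and receptor genes LOX, P4HA2, ITGA2 and LAIR1, knockdown left of control; each panel spans the same number of log2 units. COL6A1 and COL15A1 are higher and LOX, P4HA2 and ITGA2 lower in the knockdown with no overlap, while the COL6A2 groups overlap.

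None of the 8 FACIT chains passed. COL12A1, which binds the surface of collagen I fibrils, read 11.05, 11.18 and 11.30 in the knockdown and 10.88, 10.84 and 10.76 in control. The groups did not overlap, and the difference of 0.35 ± 0.08 (SE), or 1.27-fold, came close to the threshold without passing it (limma, adjusted p = 0.0566). It passed after quantile normalization (adjusted p = 0.0365), without the dim genes (0.0313), with a variance trend (0.0178) and with array weights (0.00365), all by limma. With 1 array left out the adjusted p ran from 0.0655 to 0.187. After centring on the dim genes the difference was 0.29 and did not pass (limma, adjusted p = 0.142). Nor did it pass with median centring (0.0645), every probe set (0.147) or a replicate block (0.122), all by limma. COL21A1, a dim chain, read 6.45, 6.28 and 6.54 in the knockdown and 6.01, 6.17 and 6.19 in control (0.30 ± 0.09 SE; limma, adjusted p = 0.102), again without overlap. COL19A1, also dim, read 6.72, 6.63 and 6.64 in the knockdown and 6.45, 6.48 and 6.61 in control, without overlap (0.15 ± 0.07 SE; limma, adjusted p = 0.261). COL9A1, COL9A2, COL9A3, COL14A1 and COL16A1 had differences of 0.027 to 0.15, and at an unadjusted p of 0.05 COL12A1 and COL21A1 were the 2 higher among the 8.

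None of the 9 fibrillar chains passed, and all had differences above 0, between 0.090 and 0.20. None passed an unadjusted p of 0.05 either (limma). On all 9 the highest array was knockdown replicate 1. COL1A1, the major chain of collagen I, read 8.98, 8.76 and 8.93 in the knockdown and 8.64, 8.65 and 8.84 in control, with control replicate 3 above knockdown replicate 2. Its difference was 0.18 (95% interval -0.019 to 0.37; limma, adjusted p = 0.303). Its partner COL1A2 was dim and read 7.78, 7.47 and 7.55 in the knockdown, against 7.34, 7.37 and 7.49 in control, with overlap (0.20; adjusted p = 0.274, limma), and stood at 0.11 without knockdown replicate 1. COL3A1, the chain of reticular fibres, read 8.04, 7.79 and 7.92 in the knockdown and 7.66, 7.71 and 7.95 in control, with overlap (0.14; adjusted p = 0.464, limma), and stood at 0.081 without knockdown replicate 1. COL5A1, which nucleates collagen I fibrils, was the fibrillar chain whose groups did not overlap, at 8.86, 8.77 and 8.85 in the knockdown, against 8.72, 8.72 and 8.70 in control (0.11 ± 0.06 SE; limma, adjusted p = 0.337). The dim chains COL5A2 and COL11A1 had differences of 0.13 and 0.11. COL2A1, the cartilage chain, ranged from 7.83 to 8.14 in the knockdown and from 7.68 to 7.95 in control, and COL5A3 from 8.19 to 8.59 in the knockdown and from 8.15 to 8.36 in control. COL27A1 ranged from 8.66 to 8.84 in the knockdown and from 8.60 to 8.70 in control.

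In the group of network, anchoring and transmembrane chains, COL7A1 and COL8A1 lay on opposite sides of 0. COL7A1, the chain of anchoring fibrils, read 8.85, 8.63 and 8.70 in the knockdown and 8.41, 8.54 and 8.50 in control (0.24 ± 0.08 SE; limma, adjusted p = 0.128). COL8A1, a short-chain network collagen, read 8.26, 8.35 and 8.32 in the knockdown and 8.52, 8.38 and 8.44 in control (-0.14 ± 0.06 SE; adjusted p = 0.282, limma). Neither pair of groups overlapped, and neither difference passed. COL8A2 (0.050), COL10A1 (0.14) and the transmembrane chain COL13A1 (0.074) did not pass.

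**Figure D5:**
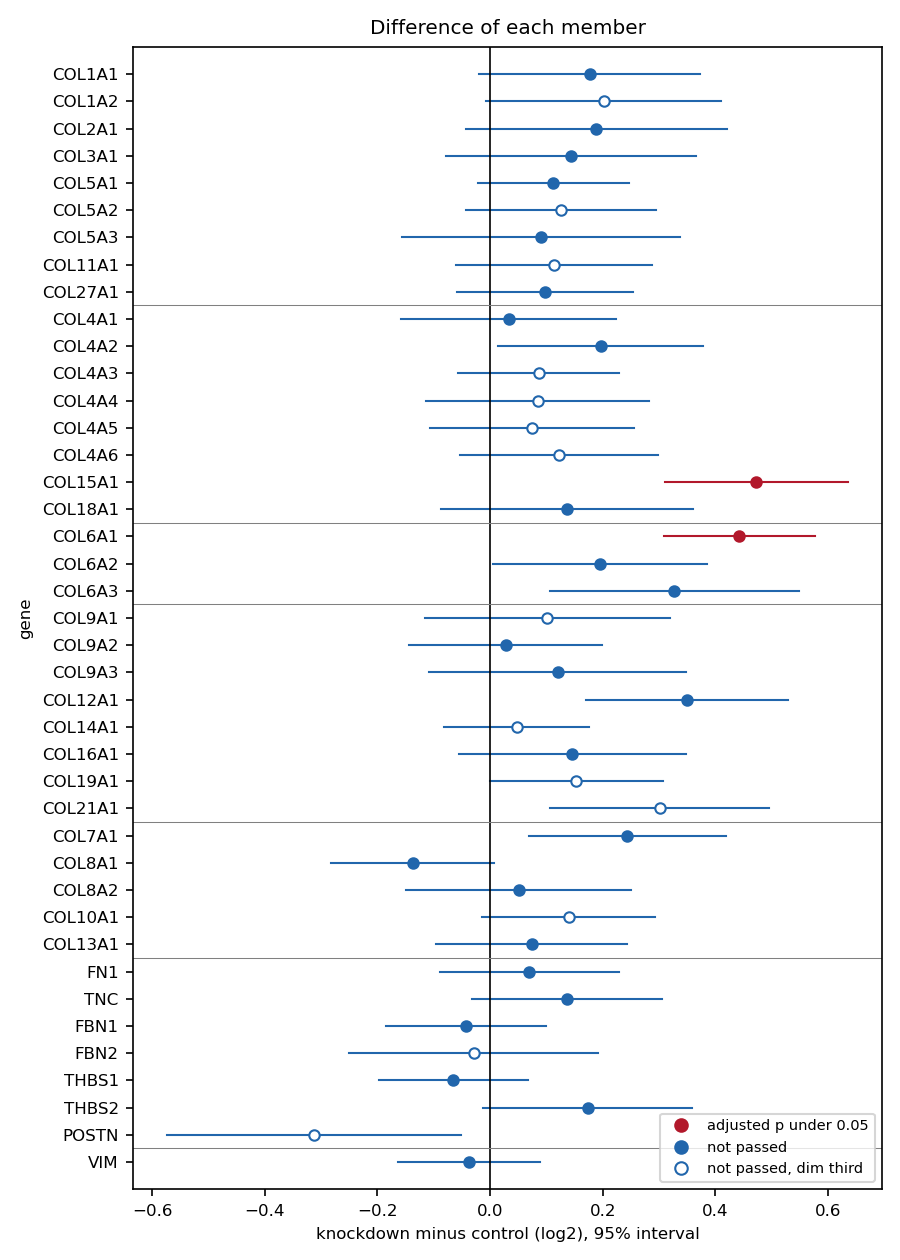
Difference between knockdown and control (log2) of each member with its 95% interval from limma, in rows by role. Red points passed an adjusted p of 0.05, open points are dim members; the intervals of COL6A1 and COL15A1 lie farthest above 0, and those of FN1, THBS1, FBN1 and VIM span 0.

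The glycoproteins and VIM showed no call in either direction and a median difference of -0.029 over the 7 glycoproteins, with POSTN lower at an unadjusted p of 0.05. FN1 read 12.77, 12.85 and 12.95 in the knockdown and 12.74, 12.77 and 12.85 in control, with a difference of 0.070 and a 95% interval of -0.090 to 0.23. THBS1, an activator of latent TGF-beta, read 13.88, 13.95 and 13.98 in the knockdown and 13.99, 14.00 and 14.01 in control. Its groups did not overlap, but the difference was -0.065 (95% interval -0.20 to 0.067; limma, adjusted p = 0.58). VIM likewise had non-overlapping groups, 13.48, 13.49 and 13.47 in the knockdown against 13.52, 13.54 and 13.50 in control, with a difference of -0.038 (95% interval -0.16 to 0.088). For FN1, THBS1 and VIM the 95% intervals held only changes in measured intensity smaller than the 0.44 of COL6A1. Their means lay at percentiles 98.53, 99.95 and 99.69 of all genes. Whether intensities that high follow changes in RNA fully was not tested.

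THBS2, a relative of THBS1, read 11.19, 11.28 and 11.28 in the knockdown and 11.13, 11.18 and 10.92 in control (0.17 ± 0.08 SE; limma, adjusted p = 0.289), and stood at 0.093 without control replicate 3. TNC, a matrix protein of wounds and tumour stroma, read 11.35, 11.38 and 11.46 in the knockdown and 11.20, 11.19 and 11.39 in control, overlapping through control replicate 3 (0.14; adjusted p = 0.355, limma). FBN1, the main microfibril protein, read 9.61, 9.69 and 9.69 in the knockdown and 9.76, 9.71 and 9.65 in control (-0.043; 95% interval -0.18 to 0.099). POSTN, periostin, had the lowest difference of all members, with 5.59, 5.85 and 5.67 in the knockdown and 5.94, 5.85 and 6.25 in control (-0.31 ± 0.11 SE; limma, adjusted p = 0.184). It is a dim gene, knockdown replicate 2 and control replicate 2 nearly met, and without control replicate 3 the difference was -0.20. FBN2, also dim, differed by -0.029.

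The collagen processing genes that passed were lower in the knockdown. The list had 33 measured genes, of which 2 fell and none rose, with a median of 0.10, while at an unadjusted p of 0.05 there were 10 higher and 5 lower (limma). Over all genes the shares were 1.28% higher and 1.78% lower at the adjusted threshold, and 10.1% higher and 9.23% lower at the unadjusted one. LOX, which crosslinks collagen and elastin, read 9.58, 9.70 and 9.65 in the knockdown and 10.63, 10.66 and 10.96 in control (-1.11 ± 0.09 SE; limma, adjusted p = 0.00329). P4HA2, a prolyl hydroxylase subunit that stabilises the triple helix, read 10.43, 10.38 and 10.36 in the knockdown and 10.73, 10.79 and 10.72 in control (-0.36 ± 0.06 SE; adjusted p = 0.0208, limma). Neither gene's groups overlapped. The P4HA2 call was lost without any 1 array other than control replicate 3 (limma, adjusted p from 0.0589 to 0.112), whereas LOX passed without any 1 array. The following processing genes did not pass and were picked out after their values were seen, as nearest to the threshold in each direction. ADAMTS14, which removes a propeptide of procollagen, differed by 0.30 (adjusted p = 0.0588, limma). SPARC, a collagen-binding protein, read 11.73, 11.70 and 11.72 in the knockdown and 11.26, 11.22 and 11.54 in control (0.37 ± 0.09 SE; limma, adjusted p = 0.065), and SERPINH1, a collagen chaperone, differed by 0.27 (0.0715). P4HA1, another prolyl hydroxylase subunit, differed by -0.25 (limma, adjusted p = 0.0963) and FKBP14, a prolyl isomerase, by -0.23 (0.104). None of these 5 genes had overlapping groups, which their choice by nearness to the threshold favoured. Over all genes, 14.3% did not overlap with the knockdown higher and 12.7% with it lower. SPARC passed without control replicate 3 (0.47; limma, adjusted p = 0.0142), and SPARC and SERPINH1 both passed without the dim genes (0.0381 and 0.0378), with a variance trend (0.0197 and 0.0212) and with array weights (0.00163 and 0.0149). ADAMTS14 passed without the dim genes (0.031) and with array weights (0.0356), P4HA1 with a variance trend (0.0402) and array weights (0.0116), and FKBP14 with array weights (0.021), all by limma. Array weights called 1718 genes higher and 1610 lower, against 235 and 327 in the main fit. None of the 5 passed with every probe set, a replicate block or centring on the dim genes (limma, adjusted p from 0.0738 to 0.209). Apart from SPARC, none passed with any 1 array left out (limma, adjusted p from 0.0818 to 0.285).

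Receptors for these ligands gave 1 rise, 1 fall and 17 genes that did not pass, with a median of -0.017, while 1.28% of all genes rose and 1.78% fell. At an unadjusted p of 0.05, 2 were higher and 3 lower (limma), against 10.1% and 9.23% of all genes. ITGB3, picked out after its values were seen, had the largest difference of the list without passing (-0.72 ± 0.24 SE; limma, adjusted p = 0.158). Its groups did not overlap, and its controls read 9.60, 9.63 and 10.60. ITGA2, the integrin subunit that binds collagen I, read 11.09, 11.11 and 11.22 in the knockdown and 11.78, 11.76 and 11.88 in control (-0.67 ± 0.07 SE; limma, adjusted p = 0.00552). LAIR1, an inhibitory collagen receptor known from leukocytes, read 9.15, 9.18 and 9.04 in the knockdown and 8.61, 8.65 and 8.44 in control (0.56 ± 0.08 SE; adjusted p = 0.0121, limma). Both pairs of groups lay apart. The LAIR1 call ended without knockdown replicate 1 or knockdown replicate 3 (limma, adjusted p = 0.0587 and 0.0576), whereas ITGA2 passed without any 1 array. The leukocyte marker PTPRC lay among the dim genes and was higher in the knockdown without overlap (0.21; limma, adjusted p = 0.0962). CSF1R, a middle gene, was also higher without overlap (0.22; limma, adjusted p = 0.104). CD68, the 1 bright marker of this list, was lower without overlap (-0.185; limma, adjusted p = 0.179). Differences were above 0 for 5 of the 7 measured markers and below 0 for 2, CD68 and ITGAM (-0.033). In all, 0 of 7 leukocyte markers passed (limma; 2 higher and 1 lower at an unadjusted p of 0.05), and their mean log2 level ran from 7.32 to 7.39 in the knockdown and from 7.27 to 7.31 in control. Their part in the LAIR1 result was not tested.

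Neither of the remaining matrix lists held a call. None of 9 other collagen chains passed (median 0.071), the largest being COL22A1 (0.20) and COL26A1 (0.17). None of 29 other matrix glycoproteins passed (median 0.041), the largest being CCN1 (-0.30), a matricellular protein high on control replicate 3, and LTBP3 (0.28), which binds latent TGF-beta. At an unadjusted p of 0.05, which 10.1% of all genes passed as higher and 9.23% as lower, the other chains had 1 higher and 0 lower, and the other glycoproteins 2 higher and 3 lower.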

How the data were processed

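Total RNA of cultured cells carried a biotin label on single-colour arrays, per the labels' protocols. The deposited values are log2 intensities that the authors had already summarised per probe set and scaled. How this was done is not given in the sources used here, and log base 2 was taken from the range of 2.13 to 14.8. Array medians lay between 7.79 and 7.86, Pearson r between arrays, across probe sets, was 0.992 to 0.997, and no pair of arrays was identical. The number of arrays, 3 per group, limits the precision.

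Of 33297 probe sets, 19460 named 1 gene, 1754 several, and 12083 were unlisted. Symbols were updated by Entrez number through RefSeq (GRCh38.p14), where 19429 matched. A gene with several probe sets kept the one with the highest mean, giving 18417 genes. The log2 difference of knockdown minus control was tested two-sided with limma 3.58.1 in R 4.3.3 (lmFit, eBayes, no covariate), with Benjamini-Hochberg adjustment over all genes and a threshold of 0.05. The fit had 4 residual degrees of freedom and was tested on simulated data.

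The members and lists were chosen with earlier results of these data known. Named were all members, EHMT2, and from each other list the genes past the threshold or, with none, the 2 largest differences; exceptions are marked. Alternatives covered normalization, filtering, probe sets, variance model, array weights, left-out arrays and a replicate block.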

Additional observations from a re-analysis of the deposited data

How the results depend on the processing

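COL6A1 and COL15A1 stayed positive under all 17 alternatives, and no member was lower at the threshold under any of them. With 1 array left out, genes higher numbered 21 to 222 and lower 23 to 313, members higher 0 to 2 (0 without knockdown replicate 1 or 3, 1 without control replicate 1 or 2), members lower 0 to 0, the members' median 0.072 to 0.17, members above 0 from 32 to 36, and EHMT2 -0.66 to -0.49. The same fits gave medians of 0.055 to 0.12 (processing), 0.020 to 0.11 (other chains), -0.022 to 0.093 (other glycoproteins) and -0.027 to 0.026 (receptors), with 1 to 3, 0 to 0, 0 to 0 and 1 to 2 calls.

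Genes higher and lower numbered 398 and 574 without the dim genes, 27 and 33 with every probe set tested, 434 and 649 with a variance trend, 1718 and 1610 with array weights, 101 and 116 with a replicate block, and, in settings added after seeing the data, 154 and 189 without control replicate 3 and knockdown replicate 1, 7 and 6 without replicate 1 of both groups, and 138 and 524 after centring on the dim genes. Members higher numbered 0 with every probe set, 11 with array weights and 0 without replicate 1 of both groups, where their median was 0.034; without the dim genes 23 of 27 tested members were above 0. EHMT2 did not pass with every probe set (-0.55, adjusted p = 0.0957) or without replicate 1 of both groups (-0.55, 0.165), both by limma. Processing genes called numbered 5 without the dim genes, 1 with every probe set, 6 with a variance trend, 12 with array weights, 1 with the replicate block and 0 without replicate 1 of both groups, and their median was 0.048 with array weights, 0.019 without replicate 1 of both groups and 0.045 after centring on the dim genes. Receptor calls numbered 1 with every probe set, 4 with array weights and 0 without replicate 1 of both groups, and the receptor median was 0.042 with probe sets averaged, 0.034 with array weights and -0.075 after centring on the dim genes. Other chains had 2 calls with array weights, and other glycoproteins 1 without the dim genes, 1 with a variance trend and 6 with array weights.

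Signs turned for 12 members, none of which passed. Without replicate 1 of both groups these were COL13A1 (-0.024), COL18A1 (-0.0040), COL4A1 (-0.0020), COL4A5 (-0.037), COL5A3 (-0.082), COL8A2 (-0.077), COL9A1 (-0.016), COL9A2 (-0.048), COL9A3 (-0.040) and FBN1 (0.012). After centring on the dim genes they were COL14A1 (-0.011), COL4A1 (-0.026), COL8A2 (-0.0080) and COL9A2 (-0.031), and after quantile normalization COL14A1 (-0.015) and COL9A2 (-0.0077). With 1 array left out, COL4A1 ran over -0.014 to 0.12, COL5A3 over -0.019 to 0.18, COL8A2 over -0.022 to 0.11, COL9A2 over -0.027 to 0.094 and FBN2 over -0.13 to 0.045. Of 683 member values under the alternatives, 636 kept direction and side of the threshold; the cause of the others was not tested. The replicate block changed neither member call (limma, adjusted p = 0.0467 for COL6A1 and 0.0416 for COL15A1), but P4HA2 (0.0693) and CDH5 (0.0649) did not pass with it. No detection call was used, which limits what the values of dim genes show. Same-numbered arrays did not deviate together (correlations -0.246, 0.122 and 0.0877), so the numbers were not taken as pairs.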

Other observations

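Of 8 endothelial markers, 1 rose and 1 fell in the knockdown, while 1.28% of all genes rose and 1.78% fell. No endothelial cell is named in the labels. CDH5, a junction cadherin, rose (8.32, 8.17 and 8.03 in the knockdown, against 7.24, 7.46 and 7.67 in control; 0.71 ± 0.12 SE; limma, adjusted p = 0.021), KDR, a VEGF receptor, fell (7.61, 7.59 and 7.60, against 8.28, 8.14 and 8.29 in control; -0.64 ± 0.06 SE; adjusted p = 0.00552), and the other 6 of 8 did not pass. PECAM1, a junction protein singled out after its values were seen, was higher without overlap (8.44 to 8.58 in the knockdown, against 7.98 to 8.31 in control; 0.42 ± 0.10 SE; limma, adjusted p = 0.0591). VWF, TEK, ERG and EMCN were dim. The CDH5 call was lost without control replicate 2, knockdown replicate 1, knockdown replicate 2 or knockdown replicate 3 (limma, adjusted p from 0.0615 to 0.0869). The mean log2 level of the 8 markers ran from 7.01 to 7.13 in the knockdown and from 6.95 to 7.03 in control, and their part in the collagen values was not tested.

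A further probe set carried the symbols of COL1A2 and PNLIP together and was left out of the tests by name. It read 5.08, 4.90 and 4.98 on the knockdown arrays and 4.84, 4.79 and 4.98 on the control arrays, well within the dim range. Among the 10 tested genes around COL5A1 on chromosome 9, 2 rose and 9 had differences above 0, with a median of 0.16, beside 0.11 for COL5A1 itself. This stretch was picked out after the values around every member were seen. Over all genes, 1.28% rose and 59.6% had differences above 0. The 10 tested genes around COL4A1 had a median of 0.17, and 0 of them passed.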
